A study of Homo sapiens with 8 samples.

Results

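STC1 and STC2 encode the human stanniocalcins, a pair of secreted glycoproteins, and are 2 of 18417 genes read by a probe set of their own in this series. Each was read by a single probe set, and both lay above the filter that 11050 genes passed. The pair was chosen by measured values: STC1 had already been seen to be low after PT2399 in these arrays, and its paralogue was set beside it over all 8 arrays. The levels and differences of STC1 and STC2 are therefore given as a description, with no p-value.

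The cells were 786-O, an established line from a clear cell kidney cancer, which lacks working VHL, the protein that sends HIF alpha subunits to degradation. The groups were parental cells in DMSO, parental cells in PT2399 at 2 uM, HIF2a-null cells in DMSO and HIF2a-null cells in PT2399 at 2 uM, each at 24 h and at 48 h with 1 array. PT2399 is an inhibitor of HIF2a, the product of EPAS1, and the null cells were made with CRISPR. The labels do not say whether they were 1 clone or a pool. Parental and null cells were run as independent experiments according to the series description, and the effect of genotype cannot be told apart from that of the experiment. Genotype was taken from the sample titles, while the growth protocol text speaks of HIF2a-null cells for every sample. The labels give 1 array per combination, and nothing says that the 2 times came from separate cultures.

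Stanniocalcin was first found in bony fish, where it lowers calcium uptake. In mammals STC1 and STC2 act mainly near the cells that release them, and both bind and inhibit the pappalysins PAPP-A and PAPP-A2, proteases that free insulin-like growth factors from their binding proteins. STC1 and STC2 are both known as hypoxia-responsive genes, and STC2 is also induced by ATF4, the transcription factor of the integrated stress response.

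Across the series the arrays had a mean intensity of 437 to 463. The null PT2399 48 h array stood apart, with a correlation across genes of 0.777 to 0.831 with the other null arrays, whose closest partners gave 0.954 to 0.983. Median intensity was 133.8 on the parental PT2399 24 h array and 112.4 to 113.5 on the other parental ones. The kidney lineage factor PAX8 (1983 to 2562) and the epithelial keratin KRT8 (1911 to 2740.4) were high on every array, and KRT18, PAX2 and CDH6 were also above the filter. LRP2 (29.7 to 113) and AQP1 (69.0 to 121), genes of the proximal tubule, had means below it. PTPRC, CD3E, PECAM1, VWF, CDH5, PDGFRB and LUM, 7 of 9 markers of leukocytes, endothelium and fibroblasts, had a mean level below the filter, with PTPRC at 13.4 to 24.0. The macrophage-linked CD68 (672 to 1252) and the collagen gene COL1A1 (118 to 171) were above it, and the part of other cells in any result was not tested. EPAS1 had intensities of 1277 and 1010 in parental DMSO cells and of 650.5 and 585 in null DMSO cells at 24 h and 48 h, which checks the labels only in part because a disrupted gene can still be transcribed.

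STC1 was high in parental cells in DMSO and low everywhere else. In parental cells its intensity with DMSO was 893 (24 h) and 669.9 (48 h), and with PT2399 it was 263 and 318. In null cells it was 252 and 268 in DMSO and 258 and 241 in PT2399. The parental DMSO arrays therefore lay above the 6 others, which spanned 241 to 318. The share of all genes that separate in this way is not given here. STC1 was chosen on its values, so nothing is read from the separation.

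STC2 had another pattern, with higher levels on the arrays of null cells. In parental cells its intensity with DMSO was 148 (24 h) and 246 (48 h), and with PT2399 it was 127 and 188. In null cells it was 469.7 and 734 in DMSO and 713 and 1074 in PT2399. All 4 null arrays lay above all 4 parental arrays, and the arrays of DMSO and PT2399 overlapped within each genotype until times were matched. Among all genes 21.8% were higher in null than in parental DMSO cells at both times, so a higher level alone is not rare. At least 2-fold higher at both times, as STC2 was, were 3.11% of all genes. The pair was chosen with its values known, so nothing is read from these shares. The intensities of the 2 probe sets are not on a scale that allows STC1 and STC2 levels to be set against each other.

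**Figure D1:**
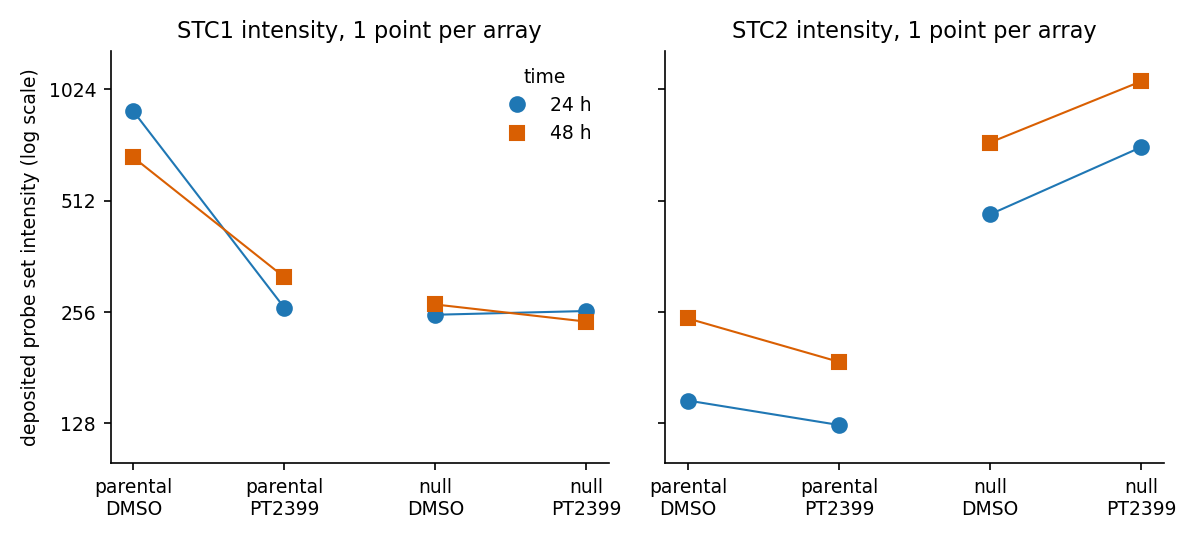
Deposited probe set intensity of STC1 (left) and STC2 (right) on a log scale, 1 point per array, with lines joining DMSO and PT2399 arrays of the same genotype and time (circles 24 h, squares 48 h). STC1 is at 893 and 669.9 in parental DMSO cells, at 263 and 318 in parental PT2399 cells and between 241 and 268 in null cells, while STC2 is between 127 and 246 in parental and between 469.7 and 1074 in null cells.

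The promoter of STC2 is shown because HIF dimers bind a short core, written ACGTG or GCGTG, and the RefSeq promoter table held 1 of the pair, STC2. The sequence is the 250 bases before its start on the minus strand of GRCh38.p14, chr5:173328415-173328664, read 5′ to 3′ along the gene, with matches to the core on either strand in capitals.

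STC2: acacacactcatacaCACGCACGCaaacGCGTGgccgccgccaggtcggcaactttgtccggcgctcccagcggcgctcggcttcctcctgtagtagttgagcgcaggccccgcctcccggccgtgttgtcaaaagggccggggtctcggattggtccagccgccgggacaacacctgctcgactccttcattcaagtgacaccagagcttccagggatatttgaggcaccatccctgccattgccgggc

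It holds GCGTG 3 times, at positions -235 to -231 and -231 to -227 on the opposite strand, which share 1 base, and at -222 to -218 on the strand of the gene. It holds ACGTG 0 times. Of 35116 windows of the same length in the table, 32.2% hold GCGTG, 18.5% hold ACGTG and 43.2% hold either, on one strand or the other. TGATGNAA, the start of the composite element that ATF4 binds with a C/EBP partner, has 0 matches on either strand of this window, where 3.14% of the windows hold one. A match in letters is a description of the window, and binding data were not used here.

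With PT2399, STC1 in parental cells was 3.39-fold lower at 24 h (log2 -1.76) and 2.11-fold lower at 48 h (-1.07). The mean of both pairs was -1.42 with a standard error (SE) of 0.27 from a limma model over the 8 arrays (2 pairs). All errors below come from that model. The gap was wider at 24 h because STC1 in DMSO was higher at 24 h than at 48 h, while STC1 in PT2399 was lower at 24 h than at 48 h. By its mean difference STC1 was number 20 from the lowest of 11050 genes, where the median gene stood at 0.02. It was among the 28 genes at least 2-fold lower at both times, which is 0.253% of those tested and is the count that brought it into view, so nothing is read from it.

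STC2 in parental cells was 1.16-fold lower at 24 h (log2 -0.22) and 1.31-fold lower at 48 h (-0.39), with a mean of -0.30 (SE 0.23). The SE is close to the size of the difference. It draws on the spread of all genes, since the residual SD of STC2 itself was 0.06. Within each pair of arrays STC1 moved further down than STC2, by -1.54 at 24 h and -0.69 at 48 h on the log2 scale.

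In null cells the PT2399 difference of STC1 was 0.03 at 24 h and -0.15 at 48 h, with a mean of -0.06 (SE 0.27), which is within its error of 0. STC2 in null cells was 1.52-fold higher with PT2399 at 24 h (log2 0.60) and 1.46-fold higher at 48 h (0.55), with a mean of 0.58 (SE 0.23). At 24 h STC2 was number 64 from the highest of 11050 genes in this comparison. At 48 h, where the PT2399 array is the one that stood apart, it was number 2756, and the SD over genes was 0.93 against 0.24 at 24 h. The parental minus null difference of the PT2399 effect was -1.36 (SE 0.38) for STC1 and -0.88 (SE 0.32) for STC2. For STC1 the parental cells carried it, and for STC2 the null cells carried the larger share, since their PT2399 difference was the larger in size at both times.

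Between the genotypes in DMSO, STC1 was 3.55-fold lower in null than in parental cells at 24 h (log2 -1.83) and 2.50-fold lower at 48 h (-1.32). STC2 was 3.18-fold higher in null cells at 24 h (1.67) and 2.99-fold higher at 48 h (1.58). The paralogues thus stood apart by -3.50 at 24 h and -2.90 at 48 h in this comparison, which has no test because it sets single arrays of separate experiments against each other. Among all genes the median difference of null from parental was -0.17. The parental PT2399 arrays came close to the null DMSO arrays for STC1, at 1.04-fold of the null level at 24 h and 1.19-fold at 48 h. For STC2 they did not, and were 3.70-fold lower than null DMSO at 24 h and 3.91-fold lower at 48 h.

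The order of the STC1 levels, with each group given by its 24 h and 48 h arrays, ran from null PT2399 through null DMSO and parental PT2399 to parental DMSO. The ranges of null PT2399 and null DMSO overlapped (241 to 258 and 252 to 268), as did those of null DMSO and parental PT2399 (263 to 318), and parental DMSO (669.9 to 893) lay apart. The order of the STC2 levels ran from parental PT2399 (127 to 188) and parental DMSO (148 to 246), which overlapped, to null DMSO (469.7 to 734) and null PT2399 (713 to 1074), which also overlapped. The gap between parental and null cells was not bridged by any STC2 array.

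Time was the other regular feature of STC2. Its level was higher at 48 h than at 24 h in all 4 combinations of genotype and treatment, by 1.67-fold in parental DMSO, 1.48-fold in parental PT2399, 1.56-fold in null DMSO and 1.51-fold in null PT2399. Of all tested genes 6.84% were higher at 48 h in all 4. STC1 showed no common direction over time, with log2 differences of -0.41 in parental DMSO, 0.27 in parental PT2399, 0.09 in null DMSO and -0.10 in null PT2399.

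The hypoxia-responsive list gives the company in which STC1 stood. Of its 22 genes 19 were tested, and 15 of them were lower in parental PT2399 cells at both times, against 27.1% of all genes, while 3 were higher at both times, against 30.7%. The list median was -0.56, and that of all genes 0.02. By limma's moderated test with Benjamini-Hochberg adjustment over 11050 genes 0 members passed, as did 0% of all genes. At an unadjusted p under 0.05, 9 members were lower, against 0.697% of all genes, and 0 were higher, against 0.480%. The list was chosen with earlier results of these arrays known, so it is not independent evidence of its direction.

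5 members were at least 2-fold lower at both times, against 0.253% of all genes, and no member was at least 2-fold higher, against 0.0452%. EGLN3, whose product hydroxylates HIF alpha subunits, was read at 863 in DMSO and 95.2 in PT2399 at 24 h, with 566 and 132 for the later pair (log2 -2.64, SE 0.34). NDRG1, a stress-responsive gene linked to differentiation, stood at -2.36 (SE 0.25), and ADM, the gene of the vessel-relaxing hormone adrenomedullin, at -2.21 (SE 0.24). SLC2A1, the glucose transporter GLUT1, stood at -1.50 (SE 0.235) and VEGFA, an angiogenic growth factor, at -1.49 (SE 0.34). STC1 lay next to VEGFA in this order. In the null cells EGLN3 stood at -0.07 (SE 0.34), ADM at 0.23 (SE 0.24), NDRG1 at 0.42 (SE 0.25) and SLC2A1 at 0.25 (SE 0.235). VEGFA stood at -0.25 (SE 0.34) there, with 0.35 at 24 h and -0.84 at 48 h, the latter on the array that stood apart. EGLN3 was below the filter's intensity on all 4 null arrays and passed through its parental level, so its part in the counts of this list supports nothing.

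**Figure D2:**
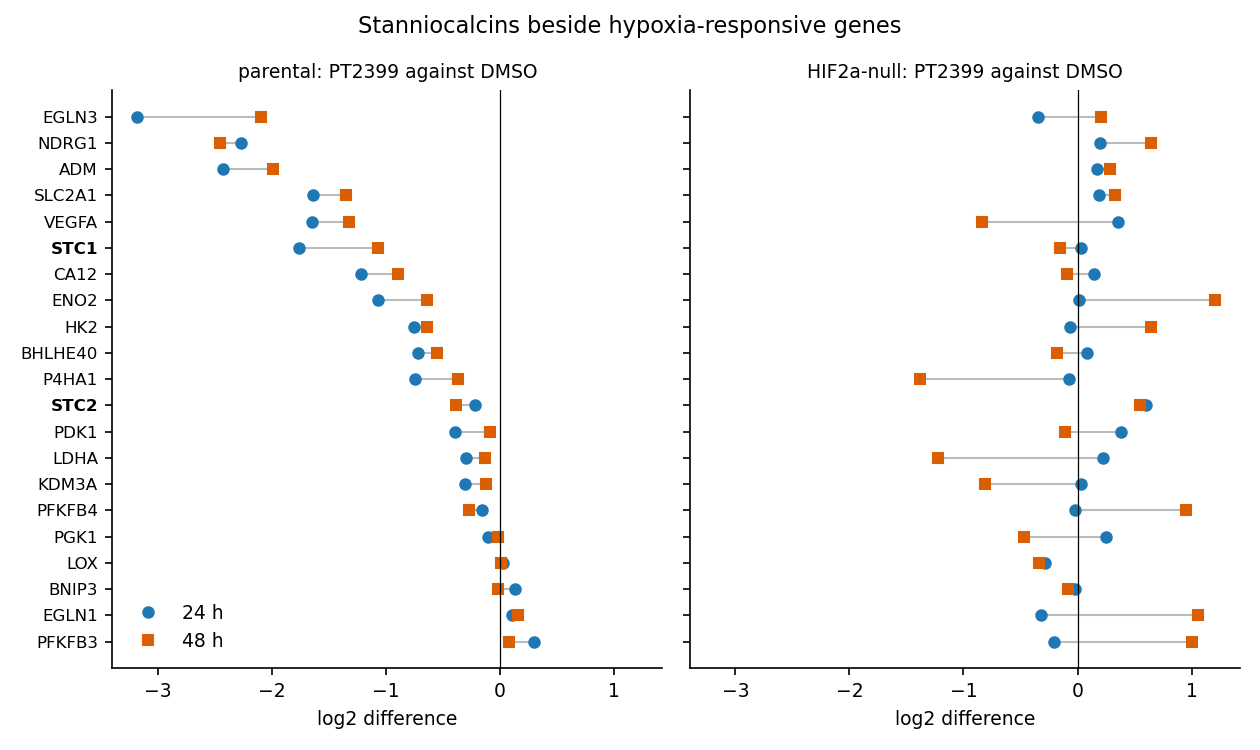
Log2 difference of PT2399 from DMSO in parental (left) and HIF2a-null cells (right) for the 19 tested hypoxia-responsive genes and the stanniocalcins in bold, with 24 h as circles and 48 h as squares and genes ordered by their parental mean. STC1 sits at -1.76 and -1.07 in parental cells and near 0 in null cells, while STC2 sits at -0.22 and -0.39 in parental cells and at 0.60 and 0.55 in null cells.

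For the parental minus null difference of the PT2399 effect, 8 of the 19 were lower at an unadjusted p under 0.05, against 0.842% of all genes, and 0 were higher, against 0.896%. This difference contains the parental PT2399 effect given above, so the 8 are not further evidence. EGLN3 was among the 8, and its part supports nothing about the list. After adjustment 0 of the 19 and 0% of all genes passed by limma. In null cells 0 members were lower or higher at that unadjusted p, where 3.07% and 1.29% of all genes were, and 0% of all genes passed after adjustment. In DMSO 14 of the 19 were lower in null than in parental cells at both times, against 45.8% of all genes. EGLN3, NDRG1, ADM and SLC2A1 were at least 2-fold lower there, against 4.68% of all genes. EGLN3 passed the filter through its parental level, so its part in that count supports nothing about the list. This last comparison uses the same parental DMSO arrays as the PT2399 effect, so the 2 are not independent.

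The genes of the HIF subunits and VHL stood between 0.03 and 0.43 with PT2399 in parental cells. EPAS1 stood at 0.31 (SE 0.23), HIF1A at 0.43 (SE 0.38), HIF3A at 0.20 (SE 0.29), and the partner subunits ARNT at 0.07 (SE 0.25) and ARNT2 at 0.03 (SE 0.24), with VHL at 0.09 (SE 0.24). ARNT, ARNT2 and VHL turned below 0 when each array was centred on its median, and ARNT2 also under quantile normalization. Of the 6, 0 passed by limma over all genes, as did 0% of all genes. At an unadjusted p under 0.05 there were 0, where 0.697% of all genes were lower and 0.480% higher, so 0 is usual for 6 genes. In DMSO, ARNT2 was read at 84.5 and 101 in null against 307 and 331 in parental cells, past 2-fold at both times, and it passed the filter mainly through its parental level.

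The ATF4 and unfolded protein response list was set beside STC2, because STC2 is a known ATF4 target. In parental cells 7 of 25 tested members were lower with PT2399 at both times and 7 higher, close to the 27.1% and 30.7% of all genes, with a median of 0.01 that turned to -0.10 after centring. By limma 0 members passed after adjustment, as did 0% of all genes. TRIB3, a stress-induced pseudokinase, stood at -0.95 (SE 0.33) and SLC3A2, the heavy chain of amino acid transporters, at -0.65 (SE 0.24). These 2 were lower at an unadjusted p under 0.05, against 0.697% of all genes, and 0 were higher, against 0.480%. CTH, which makes cysteine, stood at 0.57 (SE 0.38) and CEBPB, a transcription factor, at 0.495 (SE 0.26). In null cells 3 members were higher at an unadjusted p under 0.05, namely ATF3, PPP1R15A and PCK2, against 1.29% of all genes. Between 24 h and 48 h their differences were 0.58 and 0.77 for ATF3, 0.60 and 2.16 for PPP1R15A and 0.29 and 2.02 for PCK2, and the later value rests on the array set apart above. ATF3 was below the filter's intensity on every parental array and passed through its null level, so its part in the 3 supports nothing. For the parental minus null difference 2 of the 25 were lower at that p, ASNS and PPP1R15A, against 0.842% of all genes. ASNS, PPP1R15A and PCK2 are named after their values were seen.

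Between the genotypes in DMSO the list was mostly on the side of STC2. Of the 25, 20 were higher in null cells at both times, against 21.8% of all genes, and 1 was lower, against 45.8%. The list median was 0.60, where all genes had -0.17. At least 2-fold higher at both times were 8 of them, against 3.11% of all genes. CHAC1, which degrades glutathione, was read at 120 in parental and 764.5 in null cells at 24 h, then at 138 and 1044. DDIT3, which encodes the stress factor CHOP, was read at 146 against 667, then at 165 against 748. The others were CTH at 2.63 on the log2 scale, NUPR1, a stress-response nuclear protein, at 2.16, CEBPB at 1.69, and SESN2, a stress-induced sestrin, at 1.63. ERN1, the endoplasmic reticulum sensor IRE1, stood at 1.35 and ATF3, a stress-induced transcription factor, at 1.50. ATF3 passed the filter through its null level, so its part in the counts of 20 and 8 supports nothing about the list. ATF4 itself was higher by less, at 3062 against 2285.5 at 24 h and at 3718 against 2455 at 48 h, a mean log2 difference of 0.51. The exception was EIF2AK3, the kinase PERK, at 221 and 234 in null against 899 and 886 in parental cells. These are single arrays of separate experiments, so no test was made, and the part of the experiment in these differences was not tested.

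**Figure D3:**
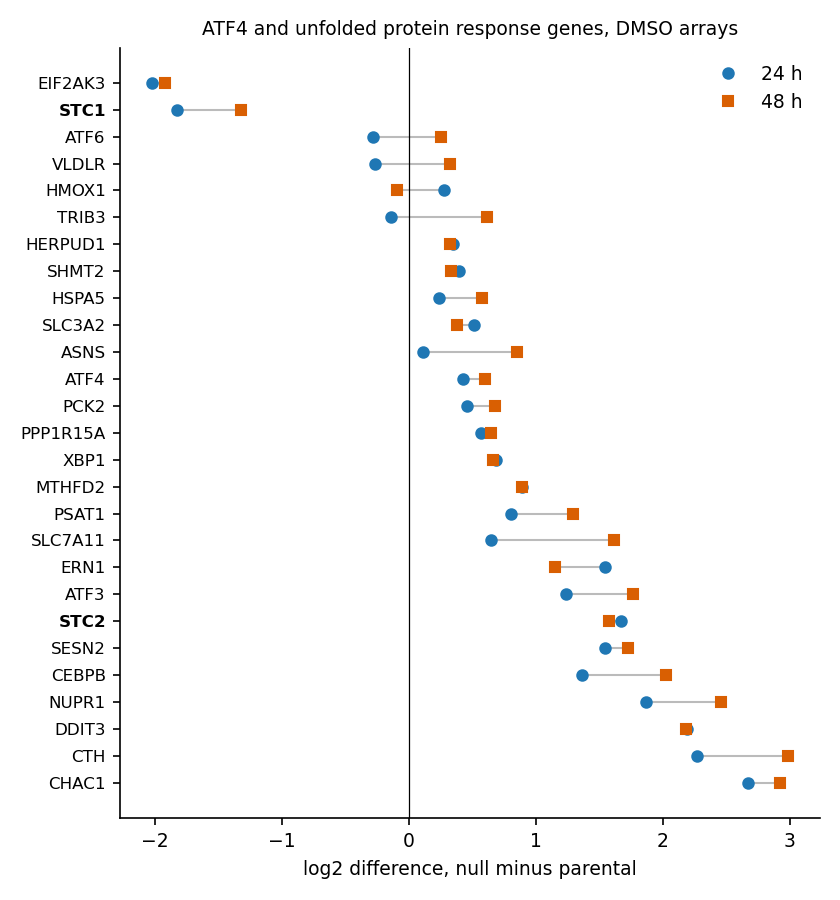
Log2 difference of null from parental cells in DMSO for the 25 tested ATF4 and unfolded protein response genes and the stanniocalcins in bold, with 24 h as circles and 48 h as squares. STC2 at 1.67 and 1.58 lies among the 8 genes that were at least 2-fold higher, and STC1 at -1.83 and -1.32 lies at the other end, above EIF2AK3 alone.

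Of the pappalysins and the IGF system, on which stanniocalcins act outside the cell, the pappalysins were weakly expressed. The IGF genes ran from below the filter to high levels, with IGFBP3 at 1690 to 5105. PAPPA, the gene of PAPP-A, was read at 83.5 to 130 and PAPPA2 at 39.3 to 91.4 on the 8 arrays, with means below the filter of 118. Of 14 genes 12 were measured and 6 tested, with 2 lower and 1 higher at both times in parental PT2399 cells, too few to set apart from the 27.1% and 30.7% of all genes. The list median of 0.10 turned to -0.02 after centring and to -0.08 at 48 h alone. IGFBP3, the most abundant IGF-binding protein of serum, stood at -0.23 (SE 0.34), the IGFBP-related IGFBP7 at 0.26 (SE 0.51), IGFBP1 at 0.17 (SE 0.25) and IGFBP4, a substrate of PAPP-A, at 0.14 (SE 0.26). Of these 6, 0 passed in any of the 3 tests, as did 0% of all genes, and 0 had an unadjusted p under 0.05 in any of them. Among all genes the unadjusted shares ran from 0.480% (higher in parental cells) to 3.07% (lower in null cells). A count of 0 is therefore usual for 6 genes.

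Calcium and phosphate handling is the classic field of stanniocalcin. Of 27 genes 15 were tested, with 4 lower and 7 higher at both times in parental PT2399 cells, where 27.1% and 30.7% of all genes were, and a median of 0.04 that turned to -0.08 after centring. By limma 0 passed, as did 0% of all genes. None of the 15 had an unadjusted p under 0.05, where 0.697% of all genes were lower and 0.480% higher, so 0 is usual for 15 genes. The nearest were ORAI3, a store-operated calcium channel, at 0.55 (SE 0.23), and UCP2, a mitochondrial carrier, at 0.42 (SE 0.41). SLC34A3, a renal sodium-phosphate cotransporter, stood at 0.23 (SE 0.31) and ATP2B4, a plasma membrane calcium pump, at 0.22 (SE 0.28). In DMSO, SLC34A3 was read at 487 and 572 in parental cells and at 73.4 and 41.3 in null cells. STIM2, a sensor of calcium stores, was at 454 and 456 against 166 and 189. These 2 of the 15 were at least 2-fold lower in null cells, against 4.68% of all genes, but SLC34A3 passed the filter only through its parental arrays, so its count supports nothing about the list.

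The genes whose levels followed each stanniocalcin most closely were ranked by Pearson's r of the log2 values over the 8 arrays. For STC1 they were EGLN3 (r = 0.988), F3, the coagulation initiator tissue factor (0.967), BICD1, a dynein adaptor (0.967), BRINP1 (0.967) and DEPP1 (0.966). All 5 were lower with PT2399 in parental cells at both times, with mean log2 differences of -2.64 for EGLN3, -2.21 for F3, -1.29 for DEPP1, -0.82 for BRINP1 and -0.74 for BICD1. That direction follows from ranking them by likeness to STC1 on the same arrays, so nothing is read from it. Like EGLN3, F3 and BRINP1 were below the filter's intensity on every null array and passed through their parental levels. DEPP1 was above it among null arrays only in DMSO at 24 h (129.5). Of the 19 hypoxia-responsive genes 5 were among the 100 genes most like STC1 (EGLN3, ADM, NDRG1, SLC2A1 and CA12), where 100 genes are 0.905% of those tested. STC1 and the list were both chosen with results of these arrays known, so nothing is read from this count.

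For STC2 they were RNF41, a ubiquitin ligase (r = 0.985), VEZF1, a zinc finger factor (0.982), NFKBIA, the inhibitor of NF-kB (0.980), MYC, the growth-promoting transcription factor (0.978), and DNAJA3, a mitochondrial co-chaperone (0.978). MYC was read at 723 and 1041 in parental DMSO cells and at 2065 and 2596 in null DMSO cells, and like STC2 it was higher at 48 h in all 4 combinations. The differences of null from parental cells in DMSO were 1.42 for MYC, 0.86 for RNF41, 0.64 for VEZF1, 0.42 for DNAJA3 and 0.40 for NFKBIA. Among the 100 genes most like STC2, which are 0.905% of those tested, were ATF4, DDIT3 and SHMT2 of the 25 stress genes and 0 of the hypoxia-responsive genes. Without the null PT2399 48 h array 5 of the 25 were among the 100, with ATF4 and DDIT3 kept and SHMT2 lost. The stress list was also chosen with results of these arrays known, so nothing is read from these counts. These correlations are descriptions over 8 arrays that share their genotype experiment and scaling. Without the null PT2399 48 h array, 1 of the 5 genes stayed among the top 5 in each case, EGLN3 for STC1 and MYC for STC2, and over the 4 parental arrays 0 did.

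**Figure D4:**
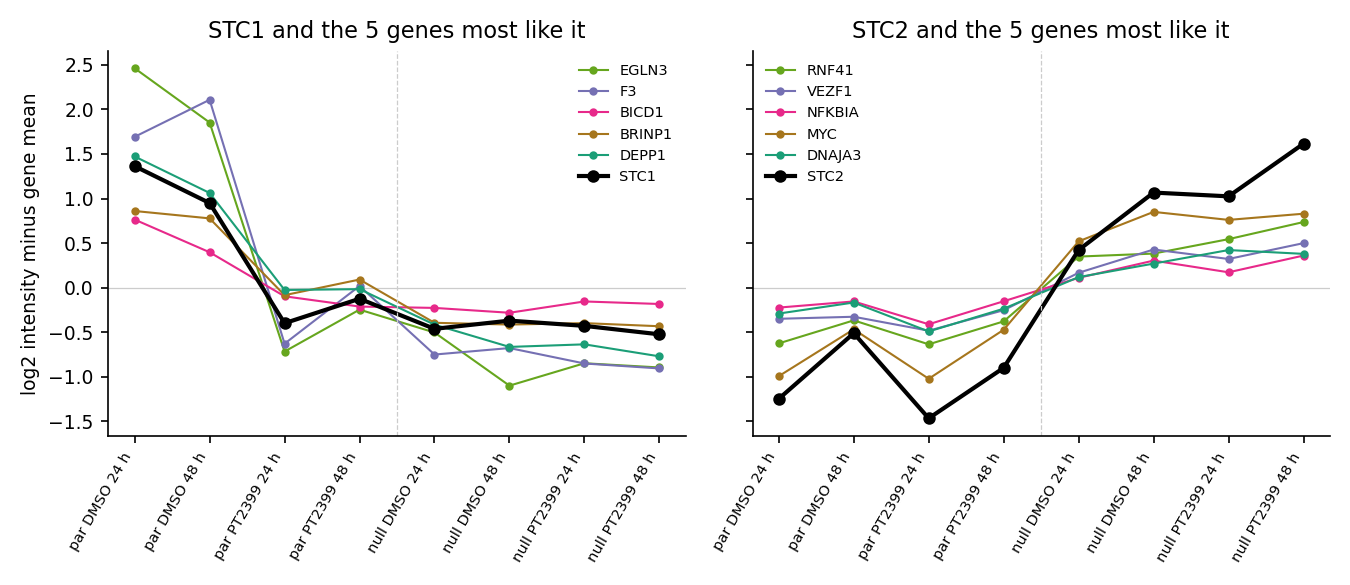
Log2 intensity minus the gene's mean over the 8 arrays for STC1 (left, black) and STC2 (right, black) and the 5 genes with the highest Pearson's r to each, with parental arrays left of the dashed line and null arrays right of it. The STC1 group is high on the parental DMSO arrays only, and the STC2 group is low on the parental and high on the null arrays, with STC2 itself covering the widest range.

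STC1 and STC2 lie on different chromosomes, and the genes next to each were examined in their order in the RefSeq gene table of GRCh38.p14. Of the 10 measured protein-coding neighbours of STC1, 7 were tested, and their parental PT2399 differences ran from -0.49 for R3HCC1 to 0.25 for NKX2-6, with 4 lower and 2 higher at both times. The nearest on either side were NKX2-6, a homeobox gene, and ADAM28, a metalloprotease gene, which was below the filter at 26.4 to 102. Of the 10 neighbours of STC2, 7 were tested, with differences from -0.20 for BNIP1 to 0.24 for CREBRF, 0 lower and 4 higher at both times. Among all genes 27.1% were lower and 30.7% higher at both times, and 7 genes are too few to set apart from these shares. NKX2-5, a cardiac homeobox gene, stood at -0.01 (SE 0.26) and BOD1, a chromosome segregation factor, at 0.14 (SE 0.28). By limma 0 of these 14 neighbours passed, as did 0% of all genes. At an unadjusted p under 0.05 there were 0, where 0.697% of all genes were lower and 0.480% higher. Counts of 0 are therefore usual for so few genes. R3HCC1, BNIP1 and CREBRF are named for the ends of the ranges, after their values were seen.

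**Figure D5:**
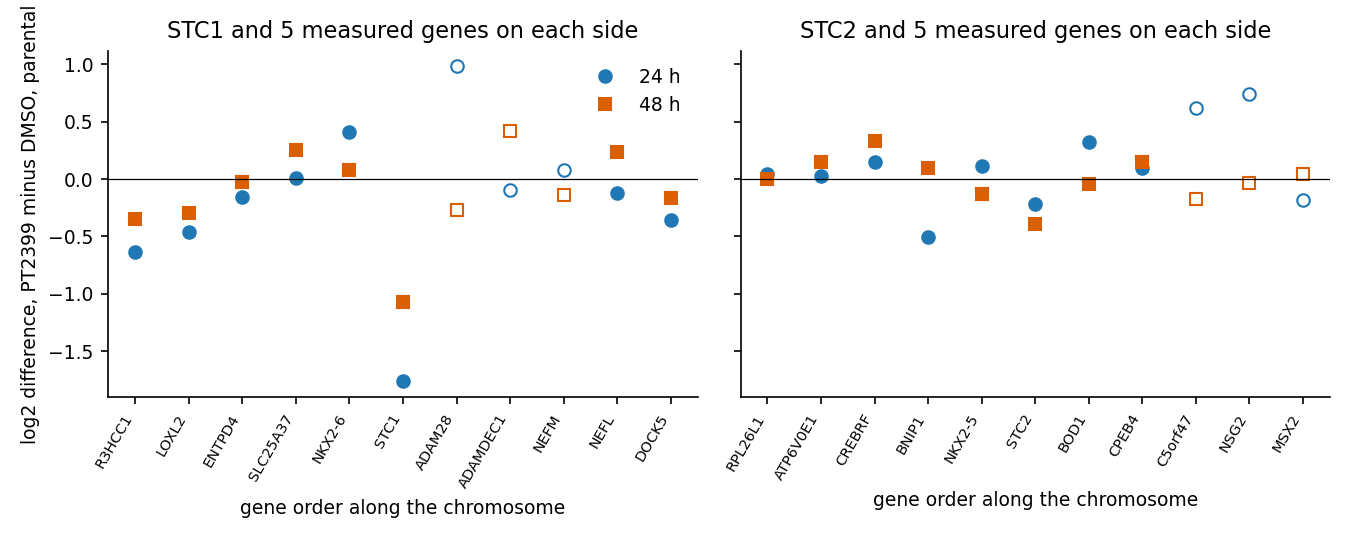
Log2 difference of PT2399 from DMSO in parental cells for STC1 (left) and STC2 (right) with 5 measured protein-coding genes on each side in chromosome order, with 24 h as circles, 48 h as squares and open symbols for genes below the filter. STC1 at -1.76 and -1.07 lies below all 10 of its neighbours, and STC2 lies within the range of its own at 24 h (-0.22, with BNIP1 lower at -0.51) and below all 10 at 48 h (-0.39).

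A transcript level averages over all cells of a culture, so fewer cells making STC1 and less STC1 RNA in each cell cannot be told apart here. Secreted stanniocalcin protein was not analysed here.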

How the data were processed

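Total RNA for 8 arrays was labelled with an Affymetrix whole-transcript kit, per the labels' protocols. The authors deposited probe set intensity values on a linear scale, 33252 per array; how background, summarisation and scaling were handled is not given here. Log2 was taken of the values as deposited. Probe sets with 1 gene (19460) were named from the platform annotation, and 19429 were updated by Entrez identifier to GRCh38.p14 RefSeq symbols. Each gene took its probe set with the highest mean, and the 11050 genes at or above percentile 40 (log2 6.88, intensity 118) went into a linear model (limma 3.58.1, R 4.3.3). Per genotype it had terms for level, time and PT2399, and it left 2 residual degrees of freedom, so the 24 h and 48 h pairs served as repeats. Errors and p-values rest on the spread between these pairs, taken over both genotypes and moderated by limma towards that of all genes. No spread between arrays of the same group enters them. The procedure was tested on simulated data. The number of arrays limits the precision.

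The members and lists were chosen with earlier results of these data known. Named genes were STC1 and STC2, the 5 genes most like each, up to 4 members per list with the largest parental difference, list members 2-fold changed at both times, HIF subunits and the nearest neighbours. Markers were fixed for the check of cell type. Alternatives were other scalings, an offset of 16, fits on 1 genotype, no time term, no filter and arrays left out. Protein sequences were not used here.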

Additional observations from a re-analysis of the deposited data

Results flagged for a closer look

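STC2 stood out because its PT2399 difference was below 0 in both parental pairs and above 0 in both null pairs, a parental minus null difference of -0.88, which was not tested because the gene was chosen on these values. Of the other genes named, 10 also had opposite directions in the 2 genotypes at both times, as had 12.3% of all 11050 genes, and for none of the 10 did limma's difference between genotypes pass after adjustment over 11050 genes. The parental minus null difference was -2.78 for NDRG1, -2.44 for ADM and -1.75 for SLC2A1. It was -1.605 for PPP1R15A and -0.958 for ASNS. It was -0.82 for BICD1, -0.34 for DNAJA3 and -0.29 for RNF41. It was 0.79 for CEBPB and 1.46 for IGFBP7, whose null differences were -0.11 at 24 h and -2.29 at 48 h, the latter on the array that stood apart.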

How the results depend on the processing

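STC1 in parental cells stayed between -1.54 and -1.37 and STC2 between -0.42 and -0.28 under the scalings and the offset, and both were below 0 at each time alone. With arrays left out, the null STC1 effect ran from -0.15 to 0.0334, which turns its sign, and the STC2 genotype difference of the PT2399 effect from -0.96 to -0.79. That STC2 difference was -0.97 after centring and -1.01 after quantile normalization. STC2 in null against parental DMSO cells was 1.71 after quantile normalization and 1.54 with the offset. Genes past the adjusted threshold numbered 0 in all 3 tests, with 4 in the parental arrays alone and 14 in the null arrays alone. With arrays left out they ran from 0 to 4 in parental cells, from 0 to 5137 in null cells and from 0 to 3477 for the difference. The parental count was 4 without either null pair and 2 without the parental 48 h pair, and the null count 14 without either parental pair. The counts of 5137 and 3477 arose on dropping the null 24 h pair, which leaves the array that stood apart as the only null PT2399 array. The scalings and single times for lists and named genes were added after seeing the data, and centring moved the median of all genes from 0.02 to -0.09. Centring turned the parental medians of the IGF (-0.02), calcium and phosphate (-0.0769) and ATF4 (-0.10) lists, and ARNT (-0.0485), VHL (-0.0245) and ARNT2 (-0.0877), which quantile normalization also turned (-0.0095). Between 48 h alone and 24 h alone the values ran from -0.0784 to 0.2323 for the IGF list, -0.10 to 0.4531 for IGFBP1, -0.0714 to 0.3576 for IGFBP4, -0.0581 to 0.5226 for SLC34A3, -0.27 to 0.9804 for ADAM28, -0.0448 to 0.3196 for BOD1 and -0.1287 to 0.11 for NKX2-5. They ran from -0.0077 (24 h) to 0.0129 (48 h) for the ATF4 list, and ARNT2 was -0.0505 at 48 h. The cause was not tested for any of these. Each stanniocalcin has 1 probe set, so averaging of probe sets left its values as they were. The model pairs DMSO and PT2399 arrays by time, and without the time term the effects of STC1 and STC2 were the same and 0 genes passed in each test. The labels give no replicate numbers to pair arrays by.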
